A study of Homo sapiens with 18 samples.

Results

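The effect of losing MMP14 was examined 1 day after spheroids of a breast cancer cell line were placed in collagen. The comparison sets 3 MMP14-KO libraries against 3 control libraries, which are 6 of the 18 libraries of the series, chosen by their genotype and treatment labels. The cells are MDA-MB-231, an established human triple-negative breast cancer line with a mesenchymal form. In both groups spheroids of 2000 cells, 100000 cells per sample, took 5 days to form in hanging droplets and then spent 24 h in a collagen hydrogel, which was dissolved with 2 mg/ml type 7 collagenase at 37 °C before RNA extraction. Control carries the genotype label Wildtype, and MMP14-KO is described as MMP14-targeted in the series' design text. The labels do not say whether the knockout is a clone or a pool, nor whether replicates are separate cultures, so the p-values measure only the spread between these samples. The remaining 4 groups of 3 are the same 2 genotypes in droplets and at 48 h in collagen, and serve here only to show where the 24 h difference is shared.

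MMP14, or MT1-MMP, is a matrix metalloproteinase held in the cell membrane by a transmembrane segment. It cuts fibrillar collagen at the cell surface, activates the secreted gelatinase MMP2 together with the inhibitor TIMP2, and is concentrated at invadopodia, the protrusions with which cancer cells open paths through dense matrix. Tumour cells that cannot cut collagen may still move through its pores by contractility of the cell cortex, a mode called amoeboid, in which myosin activity and the stiffness of the nucleus matter. The series' title places the study in this setting. Growth in stiff collagen is also known to engage the YAP-TAZ and MRTF-SRF transcription programmes through tension on integrins.

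RNA abundance is given in CPM, the share of a library's counts on the usual fixed total, after scaling of the libraries by the trimmed mean of M-values (TMM), and a change as the log2 of the ratio of MMP14-KO to control with its standard error (SE). A gene was called when its p-value in edgeR's quasi-likelihood test, adjusted by the Benjamini-Hochberg method over 17030 genes, was below 0.05. The 24 h libraries held 24196607 to 33352163 counts in control and 21486572 to 25390397 in MMP14-KO. Transcripts of the mitochondrial genome took 2.34 to 2.69% of counts in control and 2.68 to 2.94% in MMP14-KO, long noncoding RNAs took 1.01 to 1.04% and 1.17 to 1.21%, and 22457 to 23158 and 23176 to 23545 genes were detected. Control replicate 1 stood apart from its 2 companions: the chi-square per degree of freedom of its counts against replicates 2 and 3 was 10.7 and 12, against 4.47 between those 2 and 2.96 to 4.91 within MMP14-KO. The markers of the line were present at 24 h, with VIM at 3226 ± 96 CPM in control and 3602 ± 26.9 CPM in MMP14-KO (SD, n = 3 each, as for every mean below), and the defining luminal receptor genes ESR1 and PGR had 14 and 7 counts over the 3 control libraries and 14 and 0 over the 3 MMP14-KO libraries. In these bulk samples fewer cells of a kind and less RNA per cell cannot be told apart.

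At 24 h 2328 genes were higher in MMP14-KO (13.7% of those tested) and 2682 were lower (15.7%), the shares against which every count of list members at 24 h is to be read. Changes of at least 2-fold went mostly upward: 540 genes rose by that much (3.17%) and 96 fell (0.564%). The genes that rose at least 2-fold were of low abundance, with a median of 0.371 CPM in control and 1.29 CPM in MMP14-KO. Of them 234 stayed below 1 CPM in both groups and 387 were protein coding. The 96 that fell had medians of 1.78 CPM in control and 0.681 CPM in MMP14-KO. Direction went with level: among genes with a mean under 1 CPM 10.8% were higher and 1.6% lower, and among those over 100 CPM 10.1% were higher and 31.3% lower, with median log2 fold changes of 0.26 and -0.0698. Counts for lists of abundant genes are to be read beside the shares over 100 CPM as well. Scaling by library size alone, without TMM, gave 3084 higher and 1901 lower.

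**Figure D1:**
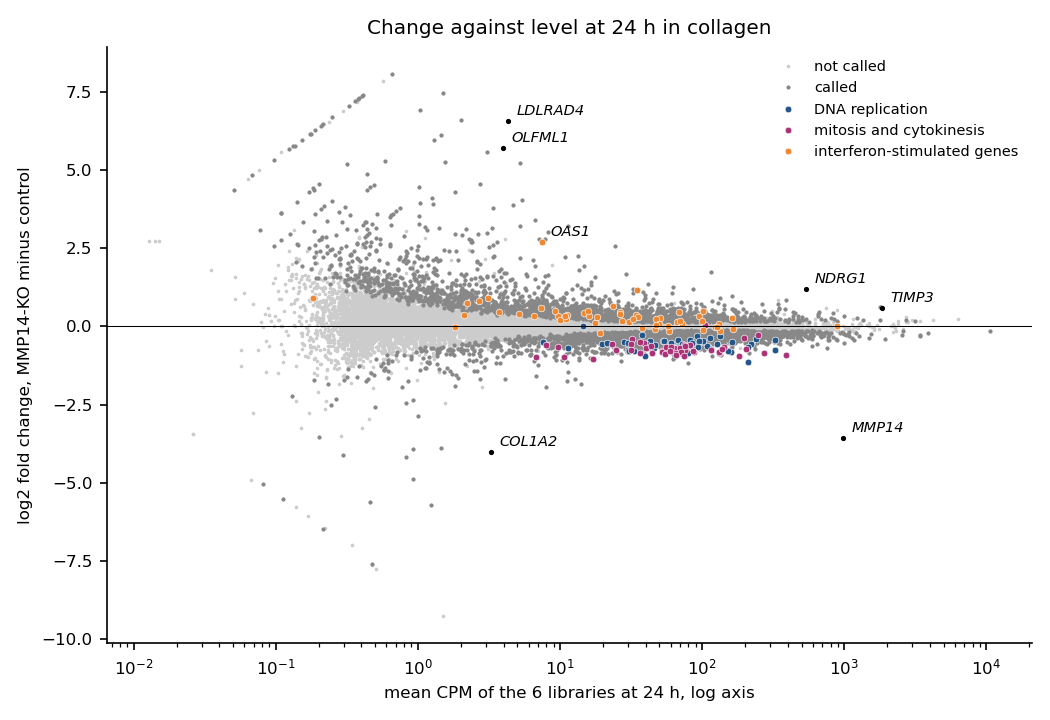
Log2 fold change of MMP14-KO against control at 24 h for each of the 17030 genes tested, against the mean CPM of the 6 libraries on a log axis. Members of the DNA replication and mitosis lists lie below 0 almost without exception, interferon-stimulated genes lie mostly above 0, and the largest rises are among genes below 10 CPM.

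MMP14 itself, at chr14:22836557-22849027 (GRCh38, matched by gene ID to the reference annotation GENCODE 29, as for all gene positions), was measured at 1976, 1767 and 1713 CPM in the control libraries and 166, 151 and 143 CPM in the MMP14-KO libraries. The groups were far apart, and MMP14-KO kept 8.43% of the control level (log2 fold change -3.57 ± 0.09, edgeR adjusted p = 1.6e-16). The log2 fold change was -3.73 in droplets and -3.29 at 48 h, and neither interaction was called for it. Gene counts do not show where in the gene the remaining reads lie, nor whether they encode a working protein. The other 3 membrane-type metalloproteinase genes that could be tested were not called.

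Genes ranked by their change at 24 h had to reach 5 CPM in either group and not to overlap between the groups. The largest rises by this rule were of genes nearly silent in control. LDLRAD4, which encodes a membrane protein that restrains TGF-beta signalling by holding SMAD proteins and lies at chr18:13217498-13652755, had 0.0835, 0.117 and 0.0614 CPM in the control libraries and 8.87, 7.78 and 8.96 CPM in the MMP14-KO libraries. Behind these values stand 7 counts over the 3 control libraries and 614 over the 3 MMP14-KO libraries, a ratio of 99.8 after scaling (95% interval 48.1 to 249, exact binomial, counting error only). OLFML1, a secreted olfactomedin-like protein at chr11:7485388-7511377, was measured at 0.167, 0.0782 and 0.184 CPM in the control libraries and 7.73, 7.74 and 7.76 CPM in the MMP14-KO libraries. Both genes were off or barely on in every control library and on in every MMP14-KO library, with log2 fold changes of 6.56 ± 0.30 and 5.68 ± 0.27.

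Among the 12 largest rises were several genes best known from neurons and vessels. ADGRL3, latrophilin 3, an adhesion receptor of synapses, had 0.751, 0.352 and 0.706 CPM in the control libraries and 10.6, 10.1 and 9.66 CPM in the MMP14-KO libraries. SLITRK6, a neuronal leucine-rich repeat protein, had 2.63, 2.03 and 2.03 CPM in the control libraries and 22.6, 19.5 and 19.5 CPM in the MMP14-KO libraries, and GABRA3, a subunit of the GABA-A receptor, had 0.501, 0.43 and 0.43 CPM in the control libraries and 7.92, 5.08 and 5.99 CPM in the MMP14-KO libraries. Their log2 fold changes were 4.04 ± 0.21, 3.21 ± 0.19 and 3.79 ± 0.29. TIE1, an orphan receptor kinase of endothelium, was at 0.876, 1.56 and 1.04 CPM in the control libraries and 11.5, 12.5 and 12.5 CPM in the MMP14-KO libraries (log2 fold change 3.39 ± 0.16, adjusted p = 1.3e-12). The MMP14-KO libraries lay close together for TIE1.

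The others were NDRG2, a member of the NDRG family, SEL1L3, the steroid-metabolising aldo-keto reductase AKR1C2, the transcription factor NFATC4, and RFPL4A with RFPL4AL1. NDRG2 was at 0.376, 0.117 and 0.184 CPM in the control libraries and 5, 5.54 and 5.08 CPM in the MMP14-KO libraries. At 24 h its log2 fold change was 4.54 ± 0.42, and in droplets it was 1.80 ± 0.30 (difference 24 h minus droplets 2.73 ± 0.55, adjusted p = 0.00913). AKR1C2 had 0.918, 1.41 and 0.798 CPM in the control libraries and 10.2, 8.28 and 9.83 CPM in the MMP14-KO libraries and a log2 fold change of 3.19 ± 0.36. SEL1L3 and NFATC4 rose by 3.87 ± 0.26 and 3.15 ± 0.21 on the log2 scale. RFPL4A and RFPL4AL1 are near-identical neighbours among which the counting may have split reads, so their separate values of 5.22 ± 0.20 and 5.57 ± 0.30 are uncertain.

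**Figure D2:**
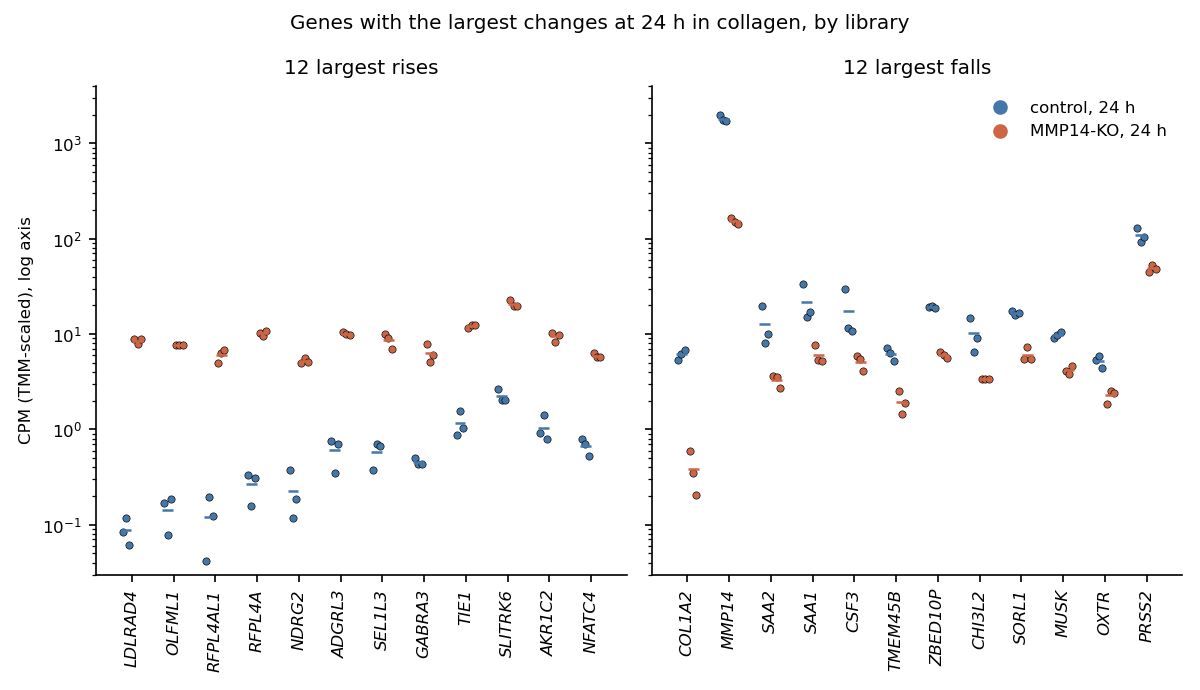
CPM in each of the 3 control and 3 MMP14-KO libraries at 24 h, on a log axis, with lines at the group means. Shown are the 12 genes with the largest rises and the 12 with the largest falls. They were taken from called genes that reach a mean of 5 CPM in either group and do not overlap between groups. Control replicate 1 is the highest for SAA2, SAA1, CSF3 and CHI3L2.

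By the same rule the largest fall was not that of MMP14 but that of COL1A2, the alpha 2 chain of type I collagen, at chr7:94394561-94431232. It was measured at 5.38, 6.14 and 6.84 CPM in the control libraries and 0.591, 0.346 and 0.206 CPM in the MMP14-KO libraries, a log2 fold change of -4.01 ± 0.30 (adjusted p = 2.3e-09). Its partner chain COL1A1 went the other way, with 28.2, 20.8 and 21.7 CPM in the control libraries and 34.9, 32.4 and 34.3 CPM in the MMP14-KO libraries and a log2 fold change of 0.53 ± 0.12. SORL1, an endosomal sorting receptor, had 17.5, 15.8 and 16.5 CPM in the control libraries and 5.5, 7.24 and 5.53 CPM in the MMP14-KO libraries. OXTR, the oxytocin receptor, had 5.34, 5.9 and 4.39 CPM in the control libraries and 1.86, 2.54 and 2.44 CPM in the MMP14-KO libraries. They fell by 1.44 and 1.18 on the log2 scale. PRSS2, trypsinogen 2, a member of a family of close copies that makes its count uncertain, had 129.7, 93.3 and 104 CPM in the control libraries and 44.9, 53.2 and 48.4 CPM in the MMP14-KO libraries. MUSK, the muscle-specific receptor kinase, and TMEM45B had log2 fold changes of -1.23 ± 0.13 and -1.67 ± 0.24, and ZBED10P had -1.67 ± 0.25.

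WNT5A, a Wnt ligand of noncanonical signalling, and CST6, the cysteine protease inhibitor cystatin E/M, were nearly lost from a low control level. WNT5A had 1.75, 1.64 and 1.84 CPM in the control libraries and 0.091, 0.077 and 0.165 CPM in the MMP14-KO libraries, and CST6 had 2.34, 3.01 and 2.76 CPM in the control libraries and 0.091, 0.116 and 0.33 CPM in the MMP14-KO libraries. The log2 fold changes were -3.92 ± 0.45 and -3.87 ± 0.41, and in droplets and at 48 h they were -3.19 and -3.10 for WNT5A and -2.76 and -2.83 for CST6. No interaction was called for either gene.

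In absolute terms the larger gains included those of ERRFI1, which encodes the EGFR inhibitor MIG6, the metalloproteinase inhibitor TIMP3 and NDRG1, a gene induced by low oxygen. ERRFI1 had 1592, 1316 and 1260.0 CPM in the control libraries and 2202, 2144 and 2118 CPM in the MMP14-KO libraries. It was higher in every MMP14-KO library than in any control library, with a log2 fold change of 0.63 ± 0.09. NDRG1 had 413, 304 and 271 CPM in the control libraries and 817, 767 and 658 CPM in the MMP14-KO libraries, a log2 fold change of 1.18 ± 0.23. Its control replicate 1 was the closest to the MMP14-KO libraries, and the groups did not overlap. The largest losses after MMP14 included TUBB, a beta-tubulin, at 3428, 3947 and 3898 CPM in the control libraries and 3015, 3002 and 3018 CPM in the MMP14-KO libraries, and HMGA1, a chromatin protein, at 2182, 2244 and 2137 CPM in the control libraries and 1631, 1675 and 1698 CPM in the MMP14-KO libraries, with log2 fold changes of -0.32 ± 0.05 and -0.39 ± 0.07. ACTB, beta-actin, fell by 0.21 on the log2 scale and IGFBP4, a binding protein for insulin-like growth factors, by 0.28, the call of the latter being lost without MMP14-KO replicate 3 (adjusted p = 0.052).

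Genes of the cell cycle were lower in MMP14-KO almost throughout. Of 47 tested genes of DNA replication 46 fell and 0 rose, and of 49 genes of mitosis and cytokinesis 48 fell and 0 rose, against 15.7% lower over all genes. Summed over the list, replication genes held 4431 to 5654 CPM in the control libraries and 3347 to 3622 CPM in the MMP14-KO libraries, and mitotic genes 4215 to 5619 CPM and 2943 to 3249 CPM. The lowest control sum in both lists was that of replicate 1, and it lay above every MMP14-KO sum. Median log2 fold changes were -0.556 and -0.746. In each list 1 member fell by 2-fold or more. The single members that did not pass were GINS3 and CDC25B.

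By step of the process, TYMS and RRM2 make the DNA precursors, CDT1 and the MCM complex license origins, CDC45 and FEN1 act at the fork, and SPC24, SPC25 and NUSAP1 belong to the kinetochore and spindle. RRM2 was at 218, 326 and 321 CPM in the control libraries and 129, 132 and 134 CPM in the MMP14-KO libraries, and FEN1 at 168, 215 and 223 CPM in the control libraries and 106, 117 and 120.4 CPM in the MMP14-KO libraries. For CDC45 the levels were 33, 47.2 and 44.9 CPM in the control libraries and 23.3, 24.6 and 25.1 CPM in the MMP14-KO libraries. Control replicate 1 lay between the other 2 control libraries and MMP14-KO for each of these genes, and no groups overlapped. SPC25 had 9.64, 16.5 and 16.4 CPM in the control libraries and 6.87, 7.08 and 7.6 CPM in the MMP14-KO libraries, and MKI67, the proliferation marker Ki-67, had 189, 255 and 273 CPM in the control libraries and 114, 129.5 and 125 CPM in the MMP14-KO libraries. The log2 fold changes were -1.13 ± 0.14 for RRM2, -0.82 ± 0.10 for FEN1, -0.99 ± 0.16 for SPC25 and -0.96 ± 0.15 for MKI67.

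The promoters of these genes are shown because replication and mitotic genes fell together and are known to be controlled by different sites. In RefSeq promoter windows of 300 bases (250 before to 50 after the gene start, GRCh38.p14, with 41 of 47 replication genes and 41 of 49 mitotic genes matched by symbol), an E2F site, spelled TTTGGCGC, TTTCCCGC, TTTGCCGC or TTTCGCGC on either strand, was present in 56.1% of the replication genes, 7.32% of the mitotic genes and 3.33% of all 27305 promoters. The cell-cycle homology region core TTTGAA, bound by the complex that represses genes of late cycle in resting cells, was present in 2.44%, 68.3% and 15.4%. Among the 11816 tested genes with a matched promoter the E2F site was present in 5.26%, near the share of the mitotic genes, and TTTGAA in 10.2%. The following stretches of 100 bases, read 5′ to 3′ on the strand of the gene and all before the gene start, carry these letters in capitals. They are TYMS (chr18:657542-657641, plus strand), CDT1 (chr16:88803682-88803781, plus strand) and MCM3 (chr6:52284889-52284988, minus strand) with an E2F site, and SPC25 (chr2:168890581-168890680, minus strand) and MKI67 (chr10:128126427-128126526, minus strand) with TTTGAA.
TYMS: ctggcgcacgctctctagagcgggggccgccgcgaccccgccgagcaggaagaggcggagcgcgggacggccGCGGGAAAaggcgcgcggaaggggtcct
CDT1: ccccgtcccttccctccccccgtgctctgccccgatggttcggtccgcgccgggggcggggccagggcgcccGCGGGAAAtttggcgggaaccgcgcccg
MCM3: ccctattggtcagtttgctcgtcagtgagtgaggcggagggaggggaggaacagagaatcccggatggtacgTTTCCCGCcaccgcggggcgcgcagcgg
SPC25: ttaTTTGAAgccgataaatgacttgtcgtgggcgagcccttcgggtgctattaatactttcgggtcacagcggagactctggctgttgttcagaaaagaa
MKI67: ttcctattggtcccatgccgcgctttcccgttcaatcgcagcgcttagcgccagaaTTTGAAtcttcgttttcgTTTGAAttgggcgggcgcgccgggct
In MKI67 the core occurs 2 times, the nearer ending 23 bases before the start, and in SPC25 it ends 241 bases before it. The E2F site ends 31 bases before the start in TYMS, 27 in CDT1 and 166 in MCM3. TYMS and CDT1 fell in MMP14-KO by 0.77 and 0.76 on the log2 scale and MCM3 by 0.75, all called. A match describes the letters of the window and is not evidence that a factor was bound in these cells.

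Other genes of proliferation control moved in both directions. CCND2, cyclin D2, rose from 0.668, 0.978 and 1.2 CPM to 6.1, 6.24 and 6.4 CPM, a log2 fold change of 2.69 ± 0.20, while CDKN1C, an inhibitor of cyclin-dependent kinases, rose by 0.81 ± 0.14. CDKN1A, the p53-responsive inhibitor p21, was at 167, 172 and 161 CPM in the control libraries and 126, 118 and 110.5 CPM in the MMP14-KO libraries and fell by 0.50 on the log2 scale. RBL1, the pocket protein p107, and the kinase inhibitor CDKN2C fell by 0.52 and 0.67. In all 5 of 18 tested inhibitors, D cyclins and MYC genes rose and 8 fell, and of 26 p53 targets 6 rose and 5 fell. BTG2, an antiproliferative p53 target, rose from 0.125, 0.587 and 0.184 CPM to 1.23, 0.962 and 1.65 CPM, and POLH, a translesion polymerase, fell by 0.64 on the log2 scale.

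The lamins that line the nucleus were among the genes that fell. Of 16 tested genes of the nuclear lamina and envelope 7 fell and 0 rose (median log2 fold change -0.193). The list is an abundant one, with 2604 to 2889 CPM summed in control. Among all genes 23.7% of those with a mean of 20 to 100 CPM and 31.3% of those over 100 CPM were lower. Outside the chromosome stretches described below 6 of 15 members fell. LMNB2 was at 235, 302 and 286 CPM in the control libraries and 149, 149 and 157 CPM in the MMP14-KO libraries, and LMNB1 at 90.9, 112 and 125 CPM in the control libraries and 64.7, 71.9 and 74.7 CPM in the MMP14-KO libraries, with log2 fold changes of -0.86 ± 0.09 and -0.63 ± 0.14. TMPO, a lamin-binding protein of the inner membrane, fell by 0.53. LMNA, which encodes the A-type lamins, had 852 ± 58.4 CPM in control and 790.3 ± 21.7 CPM in MMP14-KO and was not called (log2 fold change -0.11 ± 0.07, adjusted p = 0.225). In droplets LMNB1 and TMPO had log2 fold changes of 0.08 and -0.02, and the difference 24 h minus droplets was called for both (-0.71 ± 0.20 and -0.51 ± 0.14, adjusted p = 0.0455 and 0.0363). Both of these calls were lost on leaving out any 1 of the 12 libraries, with exceptions (adjusted p up to 0.117 and 0.103). The exceptions were control 24 h replicate 1, control droplet replicate 3 and MMP14-KO droplet replicate 2. The replication and mitosis lists had a like course, with medians of -0.00199 and -0.0809 in droplets and -0.556 and -0.746 at 24 h. Whether the lamina genes fell apart from the cell-cycle genes was not tested.

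Targets of the programmes driven by tension were lower in part, and so were some genes of myosin contraction. Of 28 MRTF-SRF targets 13 fell and 1 rose (median -0.174), and of 28 YAP-TAZ targets 11 fell and 1 rose (median -0.121). Both lists are abundant, and among all genes with a mean over 100 CPM 31.3% were lower. Outside the stretches of chromosomes 6 and 11 described below 12 of 26 and 9 of 26 fell. In droplets 12 MRTF-SRF targets were already lower and 0 higher (median -0.105), and 6 YAP-TAZ targets were lower and 3 higher (median -0.0106). MYLK, the myosin light chain kinase, was at 27.7, 30.0 and 31.1 CPM in the control libraries and 18.5, 18 and 18.7 CPM in the MMP14-KO libraries, and MYH10, nonmuscle myosin IIB, at 91.1, 105 and 110.5 CPM in the control libraries and 62.8, 72.9 and 68.2 CPM in the MMP14-KO libraries. The groups were separate for both, with log2 fold changes of -0.69 ± 0.09 and -0.59 ± 0.08. DIAPH3, a formin, and CIT, the kinase of cytokinesis, also fell, by 0.94 and 0.61. Both of these also act in cell division.

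ANKRD1, a nuclear target of both programmes, had 285, 265 and 312 CPM in the control libraries and 184, 199 and 216 CPM in the MMP14-KO libraries (log2 fold change -0.52 ± 0.10), and CCN2, a secreted matricellular protein also known as CTGF, had 859, 843 and 941 CPM in the control libraries and 593, 652 and 731 CPM in the MMP14-KO libraries (log2 fold change -0.42 ± 0.08). AXL, a receptor kinase, was at 845, 982 and 979.5 CPM in the control libraries and 563, 574 and 609 CPM in the MMP14-KO libraries. All control libraries exceeded all MMP14-KO libraries for the 3 genes. FLNC, filamin C, and FHL2 fell by 0.44 and 0.43 on the log2 scale, whereas FHL1 was the single MRTF-SRF target that rose, by 0.72 ± 0.19. CCN2 differed between conditions: in droplets it was higher in MMP14-KO (0.47 ± 0.08), and the difference 24 h minus droplets was -0.89 ± 0.11 (adjusted p = 4.4e-04). In promoter windows the TEAD site GGAATG, with which YAP and TAZ are brought to DNA, was present in 38.1% of 21 matched YAP-TAZ targets and 14% of all promoters, in 3 of the 10 matched targets that fell and 4 of the 10 that did not pass.

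Of 38 focal adhesion and invadopodium genes 8 fell and 5 rose (median -0.0318), and of 56 genes of Rac-Cdc42 protrusion 9 fell and 8 rose (median -0.0524), shares close to the 15.7% and 13.7% over all genes. TNS1, tensin 1, which ties integrins to actin, rose from 0.459, 0.782 and 0.552 CPM to 4.55, 3.81 and 3.92 CPM (log2 fold change 2.77 ± 0.23). LPXN, leupaxin, fell by 0.50 on the log2 scale and FERMT1, kindlin 1, rose by 0.45. ITGB3, the beta 3 integrin, had 29.6, 26.3 and 26.9 CPM in the control libraries and 54.7, 53 and 48.3 CPM in the MMP14-KO libraries, and ITGA7, a laminin receptor, 0.709, 0.469 and 0.399 CPM in the control libraries and 2.82, 2.58 and 2.93 CPM in the MMP14-KO libraries. Both rose, by 0.91 ± 0.09 and 2.41 ± 0.26.

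Among collagen receptors 5 of 10 rose and 2 fell. ITGA11, a receptor for fibrillar collagen, went from 0.25, 0.469 and 0.246 CPM to 1.46, 1.5 and 1.16 CPM (log2 fold change 2.09 ± 0.41). DDR1, the discoidin domain receptor kinase, had 201, 159 and 154 CPM in the control libraries and 250.3, 236 and 214 CPM in the MMP14-KO libraries (log2 fold change 0.45 ± 0.11), and this change was larger than in droplets, where it was -0.12 ± 0.11 (difference 0.57 ± 0.15, adjusted p = 0.0373). The call on that difference was lost on leaving out control replicate 2 or 3 or MMP14-KO replicate 1 or 2 at 24 h, or control replicate 1 or 2 or MMP14-KO replicate 1 or 3 in droplets (adjusted p up to 0.103). CD44, the hyaluronan receptor, was lower at 749.7, 724 and 707 CPM against 873, 928 and 978 CPM. DDR1 lies on chromosome 6 before 60 Mb, a stretch described below in which 39.1% of genes fell.

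The matrix genes of the tumour cells themselves changed without a common direction. Of 27 collagen chains 6 rose and 5 fell, and of 31 matrix glycoproteins and laminins 9 rose and 4 fell. Among the type VI collagen genes COL6A1 and COL6A2 rose. COL6A1 was at 315, 279 and 245 CPM in the control libraries and 518, 508 and 464 CPM in the MMP14-KO libraries. COL6A2 was at 54.5, 54.8 and 52.2 CPM in the control libraries and 192, 183 and 159 CPM in the MMP14-KO libraries. Their log2 fold changes were 0.83 ± 0.09 and 1.73 ± 0.07. COL12A1, a fibril-associated collagen, was at 75.2, 78.4 and 83.2 CPM in the control libraries and 38.9, 44.6 and 48.9 CPM in the MMP14-KO libraries and fell by 0.84. COL7A1, of anchoring fibrils, rose by 0.55 ± 0.11, which did not pass in droplets (-0.07 ± 0.11, difference 0.62 ± 0.16, adjusted p = 0.0283). The call on that difference was lost on leaving out control replicate 2 or 3 or MMP14-KO replicate 3 at 24 h, or control replicate 1 or 2 or MMP14-KO replicate 2 or 3 in droplets (adjusted p up to 0.074).

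SPARC, a collagen-binding matricellular protein, was at 1.25, 0.86 and 1.41 CPM in the control libraries and 5.28, 7 and 4.34 CPM in the MMP14-KO libraries, and LAMA4, the laminin alpha 4 chain, at 2.13, 2.58 and 2.52 CPM in the control libraries and 10.3, 11.7 and 9.21 CPM in the MMP14-KO libraries. They rose by 2.22 ± 0.29 and 2.10 ± 0.14, and THBS2, thrombospondin 2, by 0.98 ± 0.18. FBLN1, fibulin 1, fell from 1.54, 1.88 and 1.53 CPM to 0.955, 0.808 and 0.496 CPM. Enzymes that process and crosslink collagen were rarely called, with 1 of 23 higher (BMP1, which cleaves procollagen, log2 fold change 0.23 ± 0.05) and 3 lower (P4HB, P3H1 and CRTAP, of the prolyl hydroxylation machinery, log2 fold changes -0.26, -0.23 and -0.20). The call for P4HB was lost without MMP14-KO replicate 3 (adjusted p = 0.0534).

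The inhibitors and partners of MMP14 changed in opposite directions. TIMP3, a matrix-bound inhibitor, had 1727, 1377 and 1314 CPM in the control libraries and 2174, 2196 and 2190.0 CPM in the MMP14-KO libraries and rose by 0.57 ± 0.11. TIMP2, the inhibitor with which MMP14 activates MMP2, had 1211, 1165 and 1196 CPM in the control libraries and 991, 958 and 957 CPM in the MMP14-KO libraries and fell (log2 fold change -0.30 ± 0.05). No other member of the 5 inhibitor genes passed. MMP2 itself rose from 1.21, 1.56 and 1.53 CPM to 2.77, 3.04 and 2.31 CPM, MMP9 from 0.501, 0.469 and 0.491 CPM to 2.46, 1.81 and 2.31 CPM and MMP10, a stromelysin, from 0.542, 0.547 and 0.767 CPM to 1.5, 2.19 and 2.35 CPM. These 3 of 10 secreted metalloproteinases rose and 0 fell. MMP2, MMP9 and MMP10 had log2 fold changes of 0.91 ± 0.24, 2.16 ± 0.27 and 1.68 ± 0.27, all from levels below 2 CPM in control.

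In the plasminogen system, the other main pericellular protease route, 6 of 9 genes fell and 1 rose. PLAT, the tissue activator, was at 1420.0, 1312 and 1290.0 CPM in the control libraries and 1022, 948 and 992 CPM in the MMP14-KO libraries. Its log2 fold change was -0.44 ± 0.10, and the groups did not overlap. PLAU, urokinase, was called lower at 362, 341 and 352 CPM against 400.0, 391 and 449.6 CPM, although in droplets it had been higher (log2 fold change 0.24 ± 0.06 there and -0.23 ± 0.06 at 24 h, difference -0.47 ± 0.09, adjusted p = 0.00545). Its call at 24 h was lost without control replicate 3 (adjusted p = 0.0759). SERPINE2, protease nexin 1, was the gene that rose, from 56.7, 51.6 and 50.1 CPM to 132, 114 and 114 CPM. The count of 6 was fragile: it was 2 without control replicate 3, 4 without control replicate 1, 4 without control replicate 2, 3 without any single MMP14-KO library, and 3 with library size alone.

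Of 22 ADAM and ADAMTS proteases 5 rose and 2 fell, beside 13.7% and 15.7% over all genes, and ADAMTS7, which cleaves cartilage oligomeric matrix protein, was among the former at 24.9, 25.1 and 25.1 CPM against 18.3, 17.3 and 18.5 CPM. ADAM9 and ADAM15, membrane sheddases, fell by 0.21 and 0.23 on the log2 scale. Of 21 cathepsins and cystatins 2 rose and 4 fell, CST6 by far the most, shares near those over all genes.

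Genes with roles in axon guidance and neural adhesion were mostly higher where they passed. Of 47 tested 19 rose and 7 fell, beside 13.7% and 15.7% over all genes, with a median log2 fold change of 0.259 beside 0.0049 for all genes. Members named here and among the cadherins below were mostly at low levels, where genes in general were more often higher. Among all genes with a mean of 1 to 5 CPM 16.7% were higher and 5% lower, with a median of 0.166. Under 1 CPM 10.8% were higher and 1.6% lower, with a median of 0.26. EPHB3, an Eph receptor, was at 1.13, 1.49 and 1.69 CPM in the control libraries and 3.78, 5.27 and 3.47 CPM in the MMP14-KO libraries, and SEMA3F, a secreted semaphorin, at 5.34, 4.46 and 4.42 CPM in the control libraries and 13.4, 12.1 and 9.62 CPM in the MMP14-KO libraries. They rose by 1.53 ± 0.20 and 1.31 ± 0.12, and in droplets their log2 fold changes were 0.35 and 0.24 (differences 1.18 ± 0.26 and 1.06 ± 0.16, adjusted p = 0.0102 and 0.00127). Members also fell: SEMA5A went from 1.79, 1.88 and 1.6 CPM to 0.091, 0.231 and 0.372 CPM and EPHB1 from 1.13, 1.45 and 1.14 CPM to 0.182, 0.346 and 0.413 CPM.

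Cadherins, the calcium-dependent adhesion molecules, changed in 14 of 20 tested genes, 10 upward and 4 downward. Their median was 0.42, beside 0.166 among all genes of 1 to 5 CPM and 0.26 among those under 1 CPM. CDH10 had 0 counts in all 3 control libraries and 33, 39 and 23 counts in the MMP14-KO libraries, at least 28.7-fold higher by the exact 95% lower limit (counting error only) and 36-fold against a floor of 3 counts over the control group. CDH7 had 1 count in each control library and 55, 74 and 56 in MMP14-KO, a ratio of 70.1 (95% interval 23.6 to 343, counting error only). CDH19 was at 1.75, 1.92 and 2 CPM in the control libraries and 5.37, 6.74 and 6.57 CPM in the MMP14-KO libraries and CDH18 at 1.79, 1.99 and 1.75 CPM in the control libraries and 5.82, 5.12 and 4.67 CPM in the MMP14-KO libraries. All 4 are type II cadherins, found mostly in nervous tissue. CDH11, the mesenchymal type II cadherin, fell from 325, 272 and 280.2 CPM to 166, 182 and 183 CPM (log2 fold change -0.72 ± 0.07). CDH2, N-cadherin, had 0.895 ± 0.175 CPM in control and 0.418 ± 0.115 CPM in MMP14-KO, and FAT3, a giant atypical cadherin, had 3.78 ± 0.531 CPM in control and 1.73 ± 0.474 CPM in MMP14-KO. CDH2, FAT3 and CDH4 fell by 1.10, 1.14 and 0.33 on the log2 scale. The call for CDH2 was lost without control replicate 2 or 3 or MMP14-KO replicate 1 or 2, with DESeq2, with library size alone and with no filter (adjusted p = 0.052 to 0.157), and that for CDH4 without control replicate 3 or MMP14-KO replicate 1 or 2 (adjusted p = 0.0604 to 0.0881). CDH13, a cadherin anchored by a lipid, rose by 1.16 ± 0.24. The summed level of the family was 823.5 to 882 CPM in MMP14-KO and 943.6 to 1048 CPM in control.

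Signalling genes of several pathways were called. Of 38 Wnt and Notch genes 11 rose and 4 fell. FZD8, a Wnt receptor, was at 11.9, 12 and 11.9 CPM in the control libraries and 20.6, 19.9 and 17.6 CPM in the MMP14-KO libraries and rose by 0.70 ± 0.08, less than in droplets (1.60 ± 0.08). NOTCH4 and the Notch target HEY1 rose by 1.06 ± 0.25 and 1.32 ± 0.28 from levels near 1 CPM. PDGFRB, the PDGF receptor beta, had 15, 12.6 and 11.9 CPM in the control libraries and 20.4, 20.3 and 20.9 CPM in the MMP14-KO libraries and turned from lower in droplets (-0.42 ± 0.10) to higher at 24 h (0.64 ± 0.10, difference 1.06 ± 0.14, adjusted p = 4.4e-04).

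Of 26 genes of the EGFR family and of MAPK feedback 8 rose and 2 fell. EREG, the EGFR ligand epiregulin, was at 25.3, 20.2 and 18.1 CPM in the control libraries and 40.1, 47.4 and 43.9 CPM in the MMP14-KO libraries (log2 fold change 1.06 ± 0.14), and the feedback inhibitors SPRY1 and SPRY4 rose by 0.46 ± 0.10 and 0.44 ± 0.07, with ERRFI1 above. Of 32 genes of the TGF-beta list 13 rose and 3 fell, with a median of 0.203. This list, named TGF-beta targets in the figures, holds ligands, receptors and inhibitors of the pathway as well as targets. Its count is therefore not a measure of pathway output. The count of 13 was 8 without control replicate 3. LDLRAD4 is one of them, and TSC22D1 rose by 0.47 ± 0.08. IL11, a cytokine gene known as a classical target, was at 77, 88.5 and 70.5 CPM in the control libraries and 44.4, 46.5 and 52.2 CPM in the MMP14-KO libraries and fell.

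Hypoxia targets rose in 12 of 39 genes and fell in 1 (median 0.224), and 4 of 20 glycolysis genes rose and 2 fell (median -0.00678). Besides NDRG1, the glucose transporter SLC2A3 had 77.2, 59.8 and 55.2 CPM in the control libraries and 98, 101 and 99.4 CPM in the MMP14-KO libraries (log2 fold change 0.64 ± 0.13), and PGK1, a glycolytic kinase, 1155, 1115 and 1066 CPM in the control libraries and 1389, 1340.0 and 1257 CPM in the MMP14-KO libraries. Control replicate 1 was the highest control library in each of NDRG1, SLC2A3 and PGK1. The call for PGK1 was lost without control replicate 3 or MMP14-KO replicate 1 (adjusted p = 0.0716 and 0.066). The list's count was 7 without control replicate 3 and 17 without control replicate 1. Droplets and 48 h showed the same direction, with 14 and 19 members higher and medians of 0.17 and 0.352, and no member was called in the interaction with droplets.

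Interferon-stimulated genes were higher without an exception among those called. Of 55 tested 26 rose and 0 fell (median 0.273). OAS1, which senses double-stranded RNA, was at 2.25, 2.27 and 1.6 CPM in the control libraries and 13.3, 14.1 and 11.4 CPM in the MMP14-KO libraries, and its relative OASL at 23, 22.7 and 18.2 CPM in the control libraries and 49.1, 47.6 and 47 CPM in the MMP14-KO libraries. Groups did not overlap, and the log2 fold changes were 2.68 ± 0.15 and 1.17 ± 0.08. PARP9, an ADP-ribosyltransferase of the antiviral response, rose by 0.65 ± 0.07, ISG20, an exonuclease, by 0.58 ± 0.14, and IFITM1, a membrane protein that blocks virus entry, by 0.44 ± 0.12, the last call being lost without control replicate 3 (adjusted p = 0.0668). Summed, the list held 3021 to 3308 CPM in control and 3346 to 3462 CPM in MMP14-KO. OAS1 and OASL were the 2 members that rose at least 2-fold.

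The core of the interferon-stimulated response element, spelled GAAA, any 2 bases and GAAA again and searched on both strands, is the site of the factor ISGF3. It was present in 27 of 43 matched promoters of these genes (62.8%), in 3.65% of all promoters and in 2.96% of those of tested genes. Among the matched genes that rose it was in 12 of 19 (63.2%) and among those that did not pass in 15 of 24 (62.5%). Windows of 100 bases before the start of 3 members that rose show it in capitals, IFI44L (chr1:78620305-78620404, plus strand), ISG20 (chr15:88638877-88638976, plus strand) and IFITM1 (chr11:313930-314029, plus strand, where it ends 30 bases before the start).
IFI44L: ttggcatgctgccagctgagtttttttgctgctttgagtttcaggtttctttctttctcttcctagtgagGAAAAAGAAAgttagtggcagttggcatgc
ISG20: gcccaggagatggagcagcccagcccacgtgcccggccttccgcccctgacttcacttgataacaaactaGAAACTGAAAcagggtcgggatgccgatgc
IFITM1: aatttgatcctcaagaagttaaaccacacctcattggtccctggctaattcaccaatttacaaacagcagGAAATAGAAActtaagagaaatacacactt
IFI44L was at 1.67, 2.38 and 1.84 CPM in the control libraries and 2.73, 3.93 and 3.67 CPM in the MMP14-KO libraries (log2 fold change 0.81 ± 0.21).

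Genes of antigen presentation by MHC class I, a route that interferon is known to raise, went down in part, and 8 of 20 fell and 2 rose. TAP1, a subunit of the peptide transporter, was at 155, 124 and 133 CPM in the control libraries and 105, 101 and 103 CPM in the MMP14-KO libraries and TAP2 at 233, 247 and 248 CPM in the control libraries and 176, 179 and 181 CPM in the MMP14-KO libraries, with log2 fold changes of -0.42 ± 0.07 and -0.44 ± 0.05. Of the 8 that fell 7, among them TAP1, TAP2 and TAPBP, lie on the short arm of chromosome 6, before 60 Mb, and of the 10 members elsewhere 1 fell (the chaperone CALR) and 2 rose (median -0.0215). The latter were ERAP2, a peptide-trimming enzyme (log2 fold change 0.36 ± 0.09), and NLRC5, a regulator of MHC class I genes (log2 fold change 0.23 ± 0.08). TAP1, TAP2 and ERAP2 kept the call under the 13 alternatives, CALR, NLRC5, HLA-E and TAPBP each lost it under 3 to 5 of them, and without control replicate 1 the log2 fold changes of HLA-E and TAPBP were -0.15 and -0.12. The count of 8 was 3 without control replicate 1, 5 without control replicate 3, 2 without MMP14-KO replicate 2, 3 without MMP14-KO replicate 3, and 2 with library size alone.

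Position along the genome went with the direction of change. Of 265 windows of 10 Mb with at least 20 tested genes, 9 had 40% or more of their genes lower in MMP14-KO, and 5 of them lay on chromosome 6 and 4 on chromosome 11. No window had 40% or more of its genes higher, the most being 38.3%. These windows and the limits of the following stretches were chosen after the values were seen, and no test is given. Of 506 genes on chromosome 6 before 60 Mb 39.1% were lower and 6.92% higher at 24 h, with a median log2 fold change of -0.164. Of 226 genes on chromosome 11 from 90 Mb to its end 44.2% were lower and 6.19% higher, with a median of -0.196. The other 2 of the 9 windows lie outside these stretches and are counted as outside below. They are chromosome 6 from 70 to 80 Mb, where 51.9% of 27 genes were lower, the largest share of any window, and chromosome 11 from 50 to 60 Mb, where 40.6% of 32 were lower. COL12A1 lies in the former and LPXN in the latter.

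Both stretches were lower in droplets and at 48 h as well. On chromosome 6 before 60 Mb 38.3% of genes were lower in droplets and 37% at 48 h, and on chromosome 11 from 90 Mb 37.6% and 42.5%. Outside both stretches 14.6% of genes were lower and 14% higher at 24 h, with a median of 0.0106. Several of the genes above lie inside, among them TUBB, HMGA1, CDKN1A, POLH, MCM3, SORL1 and TMEM45B. So do 10 of 20 MHC class I genes, 2 of 47 replication genes and 4 of 75 ribosomal protein genes, all 4 of the last lower. The cause was not tested. Without the 2 stretches the counts of the main lists were 44 of 45 lower for DNA replication and 31 of 71 lower for ribosomal proteins.

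**Figure D3:**
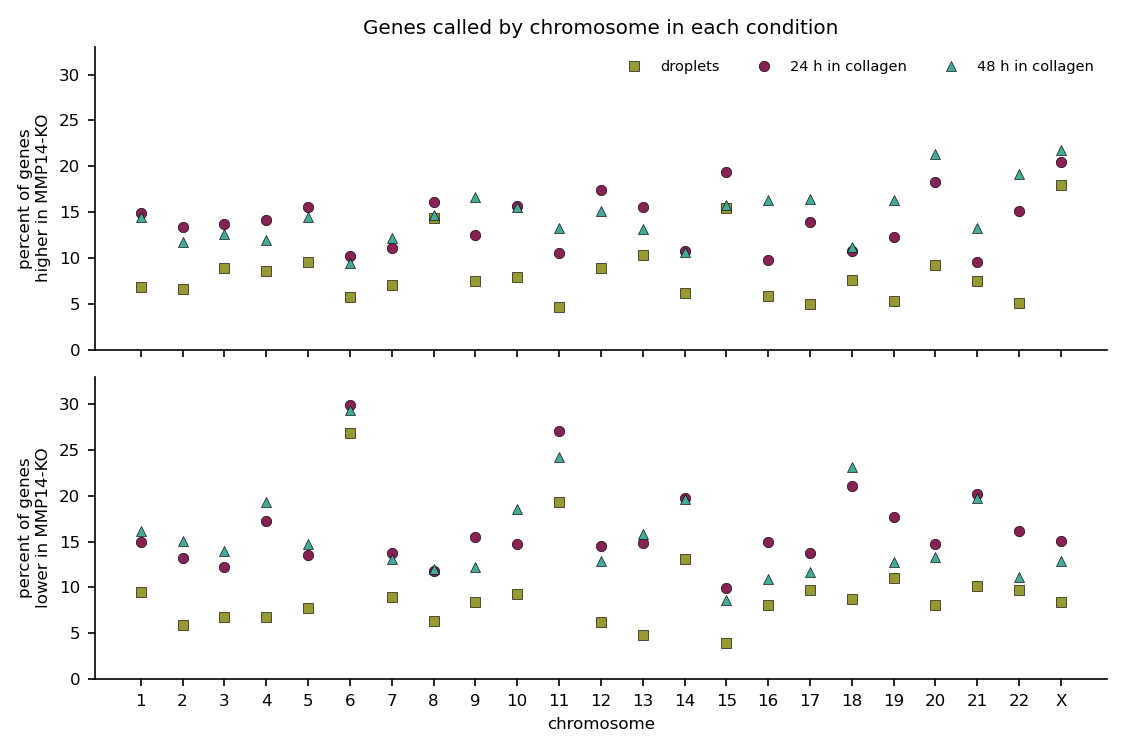
Percent of the tested genes of each chromosome called higher (upper panel) and lower (lower panel) in MMP14-KO, in droplets, at 24 h and at 48 h in collagen. Among the nuclear chromosomes 6 and 11 have the largest shares of lower genes in all 3 conditions, 29.9% and 27.1% at 24 h.

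Some acute-phase and cytokine genes were lower, with control replicate 1 the highest library for several of them. Of 38 genes of the NF-kB pathway and its cytokines 11 fell and 3 rose, beside 15.7% and 13.7% over all genes (median -0.264), the summed level being 2672 to 4257 CPM in control and 2573 to 2953 CPM in MMP14-KO, with overlap. Of the 11 that fell 3 lie in the stretches of chromosomes 6 and 11 described above, and outside them 8 of 33 fell. SAA1, serum amyloid A1, was at 33.7, 15 and 16.9 CPM in the control libraries and 7.73, 5.35 and 5.16 CPM in the MMP14-KO libraries, and its close relative SAA2, whose reads may be shared with it, at 19.8, 8.02 and 10.1 CPM in the control libraries and 3.64, 3.5 and 2.73 CPM in the MMP14-KO libraries. CSF3, the granulocyte growth factor G-CSF, had 29.8, 11.6 and 10.9 CPM in the control libraries and 5.82, 5.43 and 4.05 CPM in the MMP14-KO libraries. Control replicate 1 was by far the highest library in each. Without it the log2 fold changes were -1.40 for SAA1 (adjusted p = 0.00243), -1.47 for SAA2 (adjusted p = 5.5e-04) and -1.14 for CSF3 (adjusted p = 0.00436), against -1.84, -1.93 and -1.76 with it. The call for CSF3 was lost when only the 6 libraries compared were fitted (adjusted p = 0.0865).

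CHI3L2, a chitinase-like secreted protein, was likewise highest in control replicate 1, at 14.9, 6.49 and 9.15 CPM in the control libraries and 3.37, 3.39 and 3.35 CPM in the MMP14-KO libraries (log2 fold change -1.59 ± 0.42, and -1.23 without control replicate 1). The list's count of 11 was 8 without control replicate 1 and 7 without MMP14-KO replicate 2 or replicate 3. VCAM1, an adhesion molecule for leukocytes, rose from 1.13, 0.43 and 0.184 CPM to 2.73, 1.85 and 1.45 CPM. CCL5, a chemokine, rose by 2.64 ± 0.52 on the log2 scale, and TRAF1, a signalling adaptor, by 0.41 ± 0.10. Of the 5 tested ELR chemokines 0 were called by edgeR, and their summed level was 350.3 to 908.1 CPM in control and 378.9 to 406.7 CPM in MMP14-KO.

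Heat shock genes rose in 8 of 21 cases and fell in 2. HSPH1, an HSP110 chaperone, had 323, 293 and 312 CPM in the control libraries and 434, 452 and 492 CPM in the MMP14-KO libraries (log2 fold change 0.57 ± 0.15). In droplets the change did not pass (-0.01 ± 0.15), nor did the difference between the conditions (0.58 ± 0.21, adjusted p = 0.115). HSPB8 rose by 1.16 ± 0.20. HSPA1A and HSPA1B, near-identical copies of inducible HSP70, rose by 0.51 ± 0.09 and 0.42 ± 0.06, though reads may be split between them. Of 26 genes of the unfolded protein response 7 fell and 1 rose, beside 15.7% and 13.7% over all genes, and 6 of 25 fell outside the stretches of chromosomes 6 and 11. The list is an abundant one, with 8289 to 9177 CPM summed in control. Among all genes 23.7% of those with a mean of 20 to 100 CPM and 31.3% of those over 100 CPM were lower. The 7 falls are therefore not read as a result about the list. HYOU1, a chaperone of the endoplasmic reticulum inside the chromosome 11 stretch, fell, at 348, 319.7 and 321 CPM against 479, 452 and 464 CPM, as did SDF2L1 (log2 fold change -0.54 ± 0.12).

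Ribosomal protein genes were slightly lower in part. Of 75 cytosolic ribosomal protein genes 35 fell and 0 rose, with a median log2 fold change of -0.18 and summed levels of 30700 to 33530 CPM in control and 28490 to 29230 CPM in MMP14-KO. Among all genes with a mean over 100 CPM 31.3% were lower and 10.1% higher, with a median of -0.0698. RPS18 was at 926, 1038 and 1020.0 CPM in the control libraries and 741, 749.7 and 773 CPM in the MMP14-KO libraries and RPS15 at 169.8, 196 and 193 CPM in the control libraries and 145, 138 and 142 CPM in the MMP14-KO libraries. The count of 35 ranged from 18 (without control replicate 3) to 42 (without control replicate 1) when a library was left out, with 19 without control replicate 2, 20 without MMP14-KO replicate 1 and 21 without MMP14-KO replicate 2, and it was 20 with library size alone. Of 45 nuclear-encoded respiratory chain genes 12 fell and 0 rose, beside 23.7% lower among all genes with a mean of 20 to 100 CPM and 31.3% among those over 100 CPM. The largest fall among the 12 was of ATP5F1D, a subunit of ATP synthase (log2 fold change -0.54 ± 0.10). Of the 13 mRNAs encoded by mitochondria 0 were called by edgeR (median 0.0225).

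**Figure D4:**
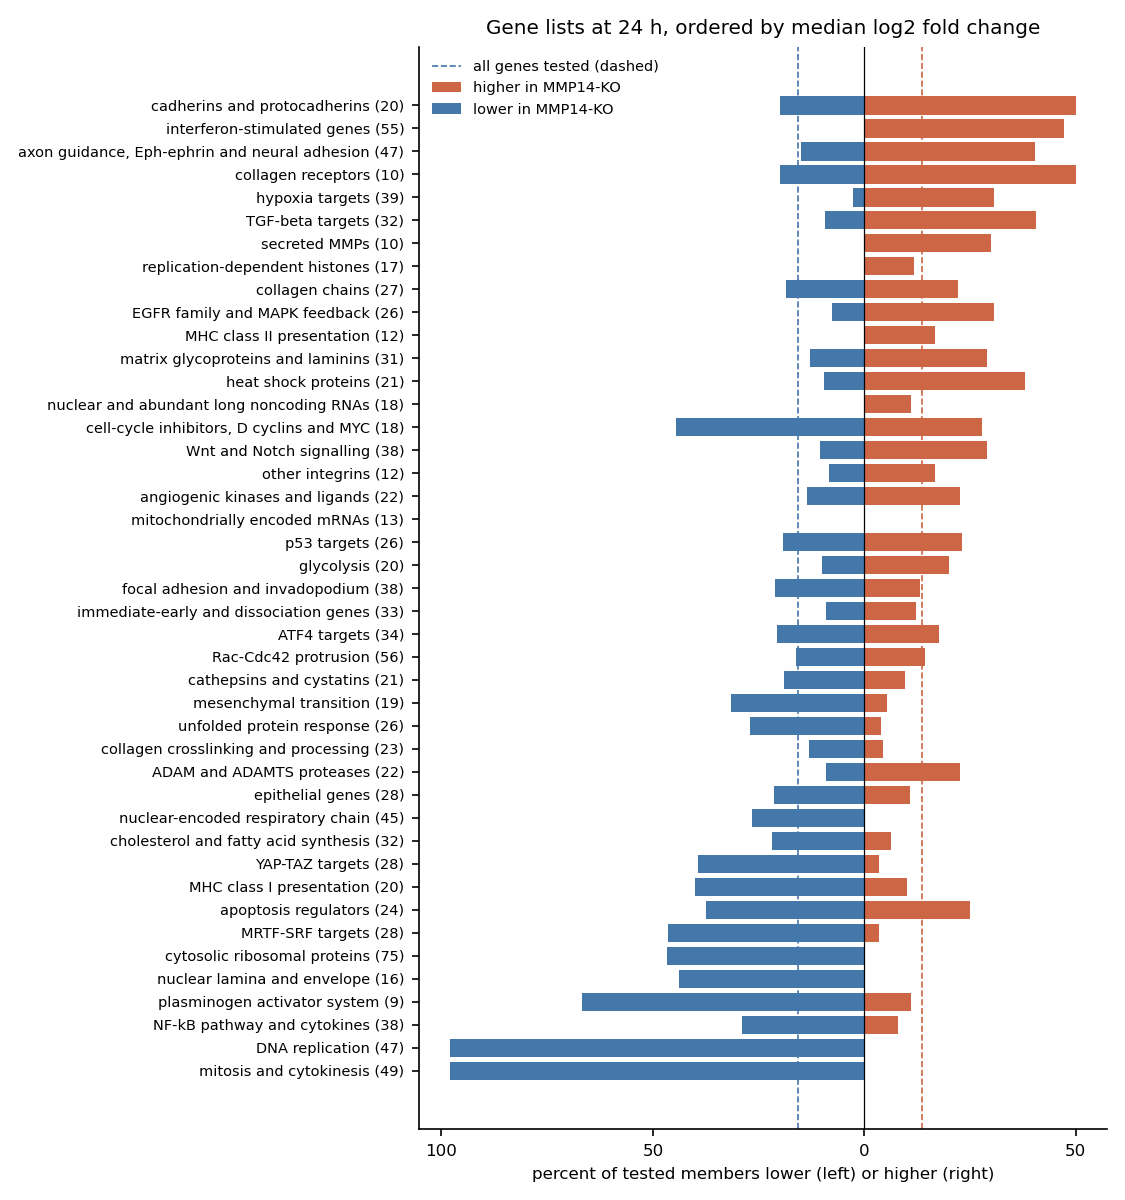
Percent of the tested members of the gene lists with at least 8 tested members, 1 list not being drawn, that were lower (left) or higher (right) in MMP14-KO at 24 h, ordered by the median log2 fold change of the list, with the number tested in parentheses and the shares over all genes as dashed lines. DNA replication and mitosis stand far to the left with 46 of 47 and 48 of 49 members lower, and cadherins and interferon-stimulated genes have the highest medians.

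Of 28 epithelial genes 3 rose and 6 fell (median -0.0788), and of 19 genes of mesenchymal transition 1 rose and 6 fell (median -0.0588), beside 13.7% and 15.7% over all genes. The epithelial shares are near those. In droplets 16 of the epithelial genes were lower and 0 higher (median -0.374), and 7 of the mesenchymal genes were lower and 3 higher (median -0.329). ESRP2, an epithelial splicing factor, was at 2.38, 3.68 and 3.41 CPM in the control libraries and 2.09, 1.54 and 1.49 CPM in the MMP14-KO libraries, and TJP3, a tight junction protein, at 1, 0.587 and 0.583 CPM in the control libraries and 2.05, 1.5 and 1.9 CPM in the MMP14-KO libraries. ESRP2 fell by 0.89 and TJP3 rose by 1.34 on the log2 scale. AGR2 and TFF3, secretory proteins of luminal epithelium, rose from 21.6, 14.7 and 12.7 CPM to 39.9, 31.1 and 28.2 CPM and from 3, 3.71 and 3.41 CPM to 6.73, 6.27 and 5.37 CPM. They belong to a list of luminal markers of which 13 were tested. In that list 3 rose, AGR2 and TFF3 among them, 2 fell, SPDEF among them, and 8 were not called. VIM, vimentin, was at the threshold (log2 fold change 0.16 ± 0.06, adjusted p = 0.0507, and 0.026 with DESeq2), and CDH1, E-cadherin, had 0.405 ± 0.0796 CPM in control and 0.446 ± 0.287 CPM in MMP14-KO.

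Among markers of cell types that the culture should not hold, several defining ones were at or near 0 counts and others were expressed. Of 12 endothelial markers 6 could be tested, of which 4 rose and 2 fell (KDR and ESAM), with a summed level of 189 to 214.5 CPM in control and 188.4 to 193.5 CPM in MMP14-KO. TIE1, ENG, FLT1 and PECAM1 rose, ENG (endoglin) from 2, 2.15 and 1.53 CPM to 8.92, 8.24 and 8.42 CPM, while the defining markers CDH5 and VWF had 1 and 6 counts over the 3 control libraries and 1 and 10 counts over the 3 MMP14-KO libraries. The call for PECAM1 was lost on leaving out any library except control replicate 1 and when only the 6 libraries compared were fitted (adjusted p = 0.0515 to 0.174). Of 14 leukocyte markers 7 were tested and 3 rose (CSF1R, CD8A and LYZ), with CD3E and MS4A1 at 0 counts in every library at 24 h. Of 12 fibroblast markers 6 were tested, with 2 higher (COL1A1 and PDGFRB) and 2 lower (COL1A2 and LUM), and DCN had 1 and 17 counts. The call for KDR was lost under 8 of 13 alternatives (adjusted p up to 0.227), among them leaving out control replicate 2 or 3 or MMP14-KO replicate 1 or 2, and that for CD8A under 5 (up to 0.149), among them leaving out control replicate 1 or 3 or MMP14-KO replicate 1. That for CSF1R was lost without control replicate 2 or MMP14-KO replicate 1 or 3 (up to 0.124) and that for LYZ without control replicate 3 (0.0703). Their part in the results above was not tested.

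Much of the 24 h difference was already present in droplets or lasted to 48 h, in libraries that the 3 comparisons do not share. In droplets 1312 genes were higher (7.7%) and 1652 lower (9.7%), and at 48 h 2458 were higher (14.4%) and 2571 lower (15.1%). Of the 2328 genes higher at 24 h 728 were higher in droplets, which is 31.3% of the 24 h list and 55.5% of the droplet list, and 34 were lower there. With 48 h 1558 were shared, 66.9% of the 24 h list and 63.4% of the 48 h list, and 1 was lower there. Of the 2682 lower genes 796 were lower in droplets (29.7% and 48.2%) and 1772 at 48 h (66.1% and 68.9%), with 51 and 0 going the other way. Of the 540 genes that rose at least 2-fold 269 were called higher in all 3 conditions, and of the 96 that fell 41 were called lower in all 3.

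The genotype difference itself changed between droplets and 24 h for 1262 genes (7.41%), with 565 (3.32%) more positive and 697 (4.09%) more negative in collagen. This count depended on single libraries: it was 406 without control 24 h replicate 3, 453 without control droplet replicate 1, 567 without MMP14-KO droplet replicate 3, 604 without control 24 h replicate 2, 637 without control droplet replicate 2, 656 without MMP14-KO 24 h replicate 1, 751 without MMP14-KO 24 h replicate 2, 837 without MMP14-KO droplet replicate 1 and 1974 without control 24 h replicate 1. By list, ribosomal proteins had the most such genes: 56 of 75 became more negative (46 had been higher in droplets, median 0.243), followed by DNA replication with 33 of 47 and mitosis with 14 of 49. In droplets 2 of 47 replication genes and 2 of 49 mitotic genes were lower. On the other side 12 of 55 interferon-stimulated genes became more positive. The mitochondrial mRNAs, all 13 lower in droplets with a median of -0.849, had no member called at 24 h, and 1 became more positive by the test of the difference. Since only the collagen samples were digested, the step into collagen and the digestion cannot be told apart in the comparison with droplets.

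Single genes with the smallest adjusted p in that test show what the change looks like. G0S2, an inhibitor of lipolysis, was higher in MMP14-KO droplets (log2 fold change 0.84 ± 0.09) and lower at 24 h (-0.33 ± 0.09), at 184, 171 and 183 CPM in the control libraries and 131, 149 and 149 CPM in the MMP14-KO libraries, though the call at 24 h was lost without MMP14-KO replicate 1 (adjusted p = 0.051). MT2A, a metallothionein, made the same turn, from 0.31 ± 0.08 in droplets to -0.52 ± 0.08 at 24 h, with 303, 347 and 331 CPM in the control libraries and 238, 222 and 224 CPM in the MMP14-KO libraries at 24 h. TACC2, a centrosomal protein, did not pass in droplets (0.02 ± 0.07) and rose at 24 h to 103, 101 and 93 CPM from 64.4, 54.7 and 56.2 CPM. SLC38A4, an amino acid transporter, and TRIML2 were lower in droplets (-0.92 ± 0.07 and -0.88 ± 0.10) and did not pass at 24 h (-0.13 ± 0.08 and 0.13 ± 0.09).

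**Figure D5:**
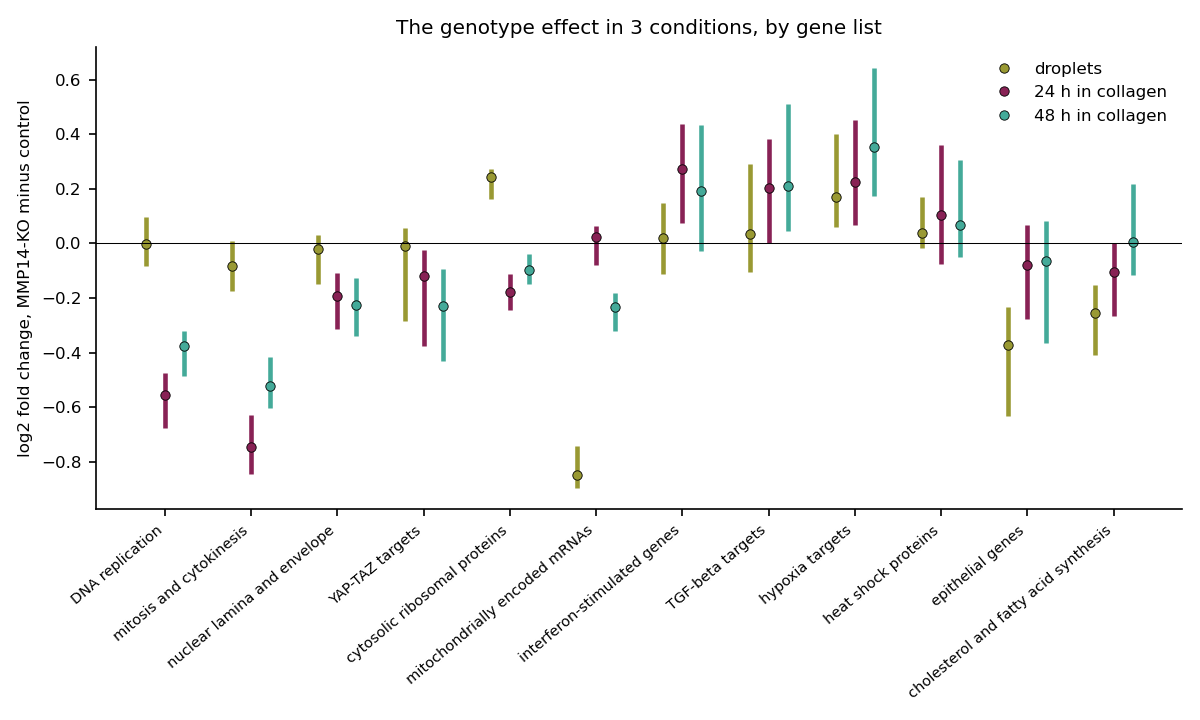
Median (point) and interquartile range (bar) over the tested members of 12 gene lists of the log2 fold change of MMP14-KO against control, in droplets, at 24 h and at 48 h in collagen. Cell-cycle lists are near 0 in droplets and lowest at 24 h (medians -0.556 and -0.746), ribosomal proteins change sign, and mitochondrially encoded mRNAs are low in droplets.

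Between 24 h and 48 h the genotype difference was not shown to change for any gene by edgeR (0 calls, 0%, with 1107 genes at an unadjusted p below 0.05), while DESeq2 called 5 genes more positive and 5 more negative. The cell-cycle lists were less negative at 48 h, with medians of -0.376 and -0.522 and with 36 of 47 and 40 of 49 members lower. Among the 8 genes with the smallest p in this test were COL6A2, for which the change was 1.73 ± 0.07 at 24 h and 2.27 ± 0.08 at 48 h (adjusted p of the difference 0.177), and CDKN1A, with -0.50 ± 0.06 and -0.08 ± 0.06 (adjusted p 0.177). HAS3, a hyaluronan synthase, had -0.22 ± 0.12 at 24 h, which did not pass, and 0.54 ± 0.12 at 48 h.

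The libraries were counted without a stated strand setting, and 56.2% of the genes called at 24 h overlap an annotated gene on the opposite strand, so that reads of the 2 genes may not be separable there. This share was not set beside the share over all genes tested. Among the genes named above such overlap concerns for example LDLRAD4, OLFML1, COL1A2, WNT5A, TIMP3, ERRFI1 and FEN1.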

How the data were processed

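RNA was sequenced from 18 samples of MDA-MB-231 spheroids, of which the 6 taken at 24 h in collagen form the main comparison. The authors deposited 1 table of expected counts per gene, all of them whole numbers. Per the submitters' processing notes cutadapt 2.3, STAR 2.7.8a, RSEM 1.3.3, DESeq2 1.42.0 and the build GRCh38 were used. For the annotation release, the strand setting and any filter the labels and the file give nothing. Of 62710 gene rows 58274 matched GENCODE 29 by gene ID, which gave positions and types. Molecular tags are not mentioned in the labels, so intervals from counts cover counting error only.

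The deposited expected counts were scaled by TMM and tested with edgeR 4.0.16 (quasi-likelihood, robust) in R 4.3.3, with 6 group means over all 18 libraries, 12 residual degrees of freedom and the 17030 genes that passed edgeR's expression filter with a minimum count of 10. Adjustment over all genes tested followed Benjamini and Hochberg, with a threshold of 0.05. Differences between conditions are interaction contrasts of the same model. The code was also run on simulated counts with few changed genes and no outlying library. That run does not measure the error rate in these data. Alternatives were DESeq2, its size factors in edgeR, library size alone, no filter, a stricter filter (1 CPM), the compared libraries only, a replicate block and leaving out each library.

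Genes were named by a rule: MMP14, the 12 largest rises and falls at 5 CPM or more without overlap, the 6 largest gains and losses in CPM, the 8 smallest p of each interaction, and up to 5 called members of each of 52 lists, plus members given for context. Not every gene it takes is printed, and a few genes and 1 list are not reported here. Members and lists were chosen with earlier results of these data known. Genes named for the promoter windows were the called list members with the largest change whose window holds the motif, and genes named to resolve a small count were chosen after their values were seen.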

Additional observations from a re-analysis of the deposited data

Results flagged for a closer look

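For 49 of the genes named above the difference between MMP14-KO and control was itself different at 24 h in collagen and in droplets, by edgeR's interaction test with an adjusted p below 0.05 (from 4.4e-04 to 0.0496). The values below are the log2 fold change at 24 h minus that in droplets. All of these rest on 3 libraries in each of 4 groups, and only the collagen groups were digested with collagenase. Of 931 values under 19 alternatives per gene 138 lost the call and 0 turned around. The lost calls came from 18 genes, AKR1C2, AXL, CDC45, CDKN1A, CDKN1C, COL1A1, COL7A1, DDR1, DIAPH3, ERAP2, ESRP2, FHL2, IL11, LMNB1, MKI67, RBL1, TAPBP and TMPO, mostly on leaving out 1 library. COL1A1 lost it under 2 alternatives, ERAP2 and RBL1 under 1, and the others under 7 to 11, with adjusted p up to 0.149.

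In the cell-cycle lists 33 of 47 genes of DNA replication and 14 of 49 of mitosis became more negative in collagen, beside 4.09% over all genes, and 0 more positive. For DNA replication the difference was -1.10 for RRM2, -0.91 for TYMS, -0.86 for CDT1, -0.87 for CDC45, -0.84 for FEN1 and -0.49 for MCM3. For mitosis it was -1.03 for SPC25, -0.98 for SPC24 and -0.76 for MKI67, and for the formin DIAPH3 -0.82. Regulators of the cycle moved both ways, with -0.69 for CDKN2C, -0.66 for RBL1 and -0.30 for CDKN1A, and 0.73 for CDKN1C. At the nuclear envelope it was -0.71 for LMNB1, -0.58 for LMNB2 and -0.51 for TMPO, for the chromatin protein HMGA1 -0.46 and for the ribosomal protein RPS18 -0.54.

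Of 28 YAP-TAZ targets 7 became more negative and 2 more positive, and of 28 MRTF-SRF targets 1 became more negative. The difference was negative for CCN2, AXL and FHL2 among targets of tension, with -0.89 for CCN2, -0.31 for AXL and -0.34 for FHL2, for secreted factors with -0.47 for PLAU and -0.76 for IL11, and for others with -1.17 for G0S2, -0.83 for MT2A and -0.91 for FZD8. KDR, an endothelial receptor kinase, had a difference of -1.12, and its 24 h call alone was not stable. CCN2, PLAU, G0S2 and MT2A were called higher in droplets and lower at 24 h.

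The difference was positive for 12 of 55 interferon-stimulated genes, beside 3.32% over all genes, with 0.93 for OAS1, 0.60 for OASL and 0.43 for PARP9, and for 2 genes of antigen presentation, with 0.53 for ERAP2 and 0.35 for TAPBP. Some receptors and guidance genes had 1.06 for PDGFRB, 0.57 for DDR1, 1.18 for EPHB3, 1.06 for SEMA3F and 1.39 for SLITRK6, and 2 collagens had 0.74 for COL1A1 and 0.62 for COL7A1. These lists moved both ways. Of 27 collagen chains 2 became more positive and 3 more negative, and of 47 axon guidance and neural adhesion genes 5 and 3. Over all genes 3.32% became more positive and 4.09% more negative. HSPA1A and HSPA1B, whose reads may be shared, had 0.69 and 0.44. Others were 2.73 for NDRG2, 1.69 for AKR1C2, 1.22 for ESRP2, 1.01 for TRIML2, 0.79 for SLC38A4, 0.74 for TACC2 and 0.68 for TRAF1. ESRP2 and TAPBP were lower in MMP14-KO at 24 h, so their positive differences mean a smaller fall than in droplets. TRIML2 and SLC38A4 were lower in droplets and did not pass at 24 h. PDGFRB was called lower in droplets and higher at 24 h.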

How the results depend on the processing

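Of 13 alternatives per gene, applied to the 167 genes named with a change at 24 h, 2105 of 2169 values kept their direction and their side of the threshold and 0 turned around. In 57 values, from 18 genes, a call was lost, and in 7, all of VIM, one was gained. Of the counts of genes and list members, those not named below stayed within 1.5 times. The count of 5010 genes called at 24 h lay between 3436 and 5043 when 1 library was left out, and 636 of them changed at least 2-fold. The 1262 genes that differed between 24 h and droplets were 2046 with no filter and 406 to 1974 without 1 library. The 0 that differed between 48 h and 24 h were 10 with DESeq2, 240 with no filter and 0 to 2 without 1 library. With library size alone lower members were 2 for MHC class I, 20 for ribosomal proteins and 3 for the plasminogen system. With no filter 19 hypoxia targets were higher and 19 NF-kB genes lower. Leaving out 1 library gave 2 to 8 lower members for MHC class I, 18 to 42 for ribosomal proteins, 2 to 4 for the plasminogen system and 7 to 13 for NF-kB. It gave 8 to 13 higher members for the TGF-beta list and 7 to 17 for hypoxia targets. The cause was not tested.

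The labels number the replicates 1 to 3 in each group, but same-numbered 24 h libraries did not deviate together (correlations of -0.0401, -0.0701 and -0.04), so the numbers were not taken as pairs. With the number as a replicate block 2432 genes were higher and 2820 lower at 24 h, and 1782 differed from droplets. Depth limits the genes of low level: 234 of the 540 genes that rose at least 2-fold had means under 1 CPM in both groups, where a few counts decide a fold change.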
